A study of Mus musculus with 2 samples.

Results

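Cxcl9, Cxcl10, Cxcl16 and Ccl5 encode chemokines that attract lymphocytes, and Cxcr3 and Cxcr6 encode receptors that lymphocytes use to follow such signals. These 6 genes, of 32285 in the count tables, were taken by their symbols, and their levels and shares of positive cells were read in cell classes set by marker genes. The samples were subcutaneous tumours of CT26, a mouse colorectal carcinoma line, grown in BALB/c mice that were 5 weeks old at assignment, and both were labelled wild type and carried the same batch label. Mice received vehicle or WQ-2101, an inhibitor of PHGDH, the enzyme that starts serine synthesis, at 20 mg/kg into the peritoneum daily from the time a tumour reached about 100 mm3. Tumours were taken on day 17, dissociated with enzymes, with no sort given in the labels, and read by droplet single-cell RNA sequencing of 3' ends. Each group had 1 library, and the sources do not say how many mice it came from. No difference below therefore has a replicate error, no test of the treatment was possible, and the printed intervals cover counting error only.

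CXCL9 and CXCL10 are induced by interferons and bind CXCR3, which is carried by activated and effector T cells. CXCL16 is made as a membrane-bound protein, released by cleavage, and binds CXCR6, a receptor of effector and tissue-resident T cells. CCL5 is made by activated T cells and NK cells as well as myeloid cells, and draws T cells and monocytes.

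After removal of low-quality barcodes and called doublets, 13667 cells remained in the vehicle library and 17378 in the WQ-2101 library, at median depths of 10736 and 8058.5 UMIs (unique molecular identifiers, which tag single captured transcripts). The libraries shared 73 barcodes. The gates held 6669 vehicle and 8885 WQ-2101 tumour cells, 4263 and 3824 macrophages and monocytes, 592 and 667 T cells, and 128 and 113 dendritic cells. The tumour gate rested on Hmga2, at 1172 and 1202 CPM (UMIs of a gene per 1000000 UMIs of the class) in vehicle and WQ-2101, and on lesser markers. The epithelial genes Krt8, Krt18 and Epcam, often used for carcinoma cells, were at or below 0.142 CPM in that class. A further 1411 vehicle and 2236 WQ-2101 cells matched no class, and 66 and 977 cells had tumour or stromal markers together with macrophage markers and were set aside. The last group made up 0.483% of vehicle and 5.62% of WQ-2101 cells.

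Cxcl9 and Cxcl10 are neighbours on chromosome 5, both on the minus strand of GRCm38. GENCODE vM21 places the protein-coding gene Cxcl9 (ENSMUSG00000029417) at 92321347 to 92328079 and Cxcl10 (ENSMUSG00000034855) at 92346638 to 92348889, each with 4 exons in the principal transcript, and 18558 bases lie between them. Their promoters are shown because the libraries differed more in Cxcl9 than in Cxcl10 in tumour cells. Each window runs from 250 bases before to 50 bases after the start, on the minus strand, 5′ to 3′, from RefSeq on GRCm38.p6: chr5:92328030-92328329 for Cxcl9 and chr5:92348840-92349139 for Cxcl10. Capitals mark matches to the searched motifs.
Cxcl9: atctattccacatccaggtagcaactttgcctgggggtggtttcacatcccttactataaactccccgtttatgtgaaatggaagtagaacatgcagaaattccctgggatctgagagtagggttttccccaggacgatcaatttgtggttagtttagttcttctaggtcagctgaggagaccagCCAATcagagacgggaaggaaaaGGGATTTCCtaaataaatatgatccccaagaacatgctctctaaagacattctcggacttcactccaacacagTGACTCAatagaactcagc
Cxcl10: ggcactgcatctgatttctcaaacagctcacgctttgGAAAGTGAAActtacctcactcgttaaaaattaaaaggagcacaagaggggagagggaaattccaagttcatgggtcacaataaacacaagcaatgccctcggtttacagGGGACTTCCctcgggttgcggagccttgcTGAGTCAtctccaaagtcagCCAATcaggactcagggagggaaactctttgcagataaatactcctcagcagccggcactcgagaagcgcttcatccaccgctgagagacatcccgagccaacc
The motifs, searched on both strands, were GAS (TTCNNNGAA), ISRE (GAAA, any 2 bases, GAAA), a kappa-B site (GGGANTTCC), CCAAT and AP-1 (TGANTCA). Cxcl9 had CCAAT from 65 to 61 and the kappa-B letters from 42 to 34 bases before the start, and AP-1 from 32 to 38 bases after it. Cxcl10 had ISRE from 213 to 204, kappa-B from 103 to 95, AP-1 from 74 to 68 and CCAAT from 54 to 50 bases before the start. Both windows thus held kappa-B, CCAAT and AP-1 letters, the ISRE letters were in that of Cxcl10 alone, GAS letters were in neither, and no matches overlapped. Of 32851 RefSeq promoters of this length, 8.30% held GAS, 3.44% ISRE, 1.68% kappa-B, 37.4% CCAAT and 7.81% AP-1. These matches are letters in a window and were not tied to binding by any value here.

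A gene was counted as higher or lower in a class when the ratio of WQ-2101 CPM plus 5 to vehicle CPM plus 5 reached 1.5-fold in either direction, among genes with a mean of 5 CPM or more. In tumour cells 4 of the 6 genes passed that minimum and 3 of them, Cxcl9, Cxcl16 and Ccl5, were higher with WQ-2101, where 0.879% of all 10017 genes tested were higher, 0.409% lower and 1.29% either. In macrophages and monocytes 4 of 6 passed and 1, Ccl5, was higher, against 1.93% of 9434 genes higher, 0.731% lower and 2.66% either. All 6 passed in T cells, where Cxcl9 and Cxcl16 were higher, against 2.56% of 9724 genes, and Cxcl10 was lower, against 3.10% lower and 5.66% in either direction. Cxcl9 passed the minimum in T cells only through its WQ-2101 level. In dendritic cells 4 of 6 passed and 1, Cxcl10, was higher, against 11.9% of 9570 genes higher, 10.5% lower and 22.4% either, a background so high that 1 gene of 4 does not stand out from it. The receptors were below the minimum in every one of these classes but T cells. The median log2 ratio of the members that passed was 0.73 in tumour cells, 0.41 in macrophages and monocytes, 0.14 in T cells and 0.22 in dendritic cells, beside medians between -0.02 and 0.01 over all genes tested. The T cell median included Cxcl9, at 2.60, and its sign rests on that gene. Of the other members there, Cxcl10, Cxcr3 and Ccl5 had -1.05, -0.45 and -0.30, and Cxcr6 and Cxcl16 had 0.58 and 0.95.

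**Figure D1:**
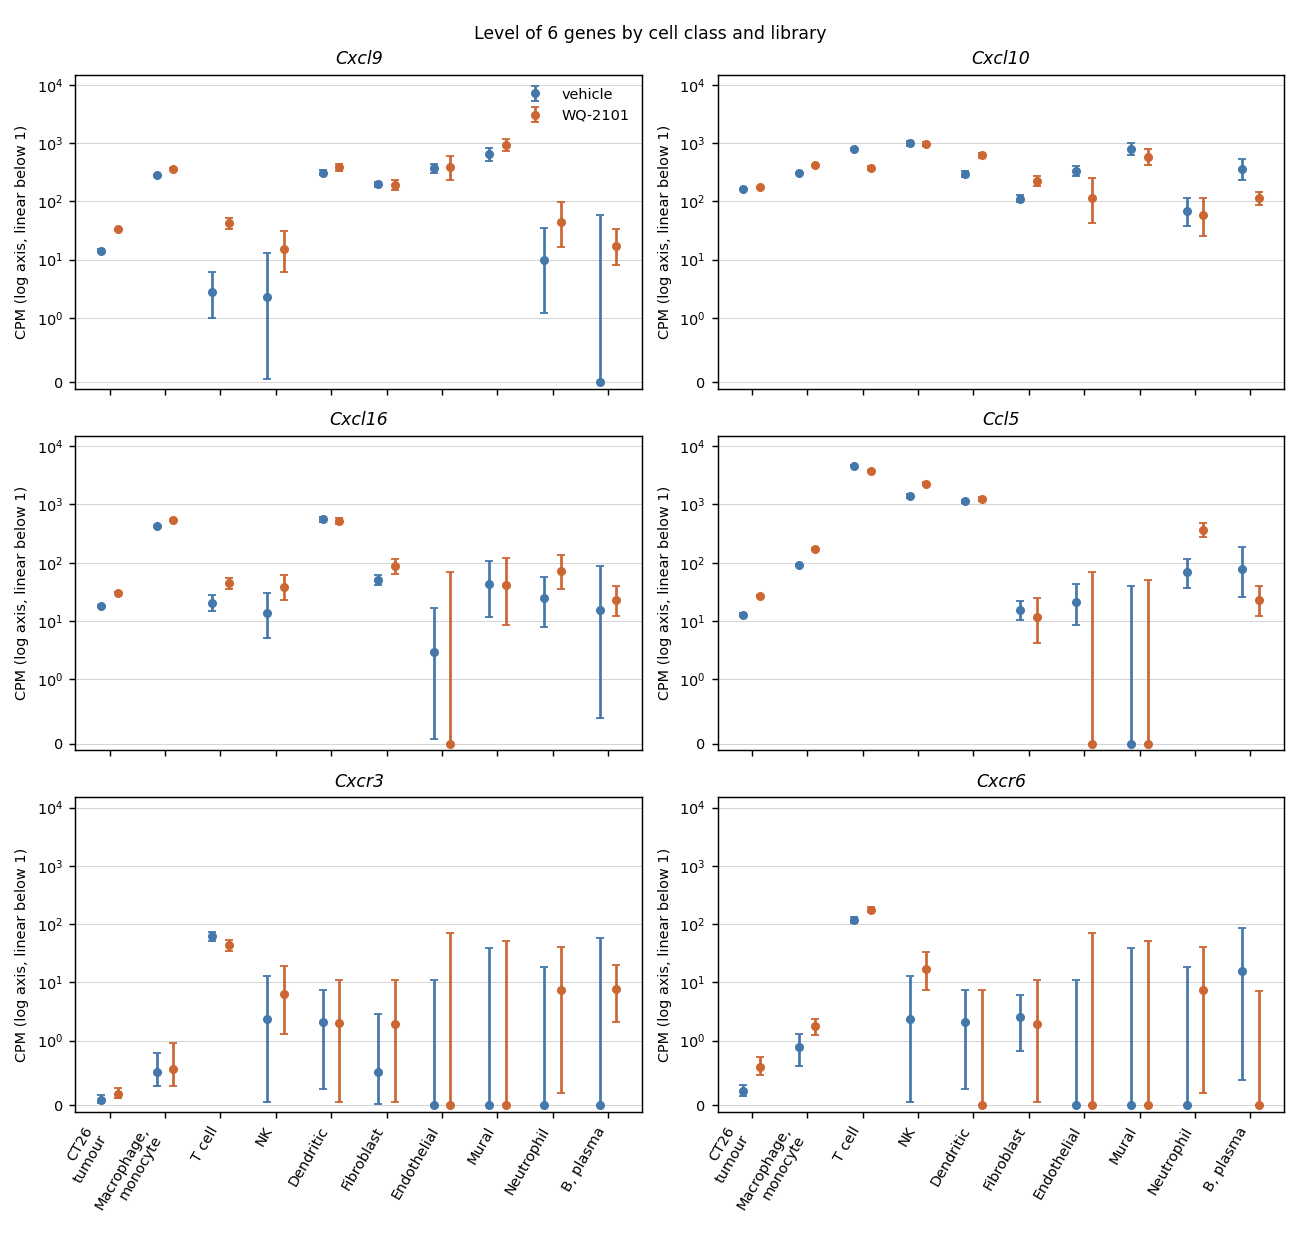
Level of each gene in 10 marker-gated cell classes of the vehicle and WQ-2101 libraries. The vertical axis is CPM on a log scale that is linear below 1, points are libraries and bars are exact 95% Poisson intervals for counting error only. Cxcr3 and Cxcr6 stand apart in T cells, whereas Cxcl10 is above 100 CPM in both libraries in tumour, macrophage, T, NK, dendritic, fibroblast, endothelial, mural and B and plasma cells.

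Cxcl9, the CXCR3 ligand most closely tied to interferon gamma, was highest in mural cells, the contractile cells of vessel walls, at 638 CPM (95% interval 487 to 821) in vehicle and 942 CPM (733 to 1192) in WQ-2101, although only 18 and 17 mural cells were found. Endothelial cells had 370 and 382 CPM, from 42 and 11 cells, next after mural cells in vehicle but just below dendritic cells in WQ-2101. Dendritic cells had 311 (277 to 348) and 385 (332 to 442) CPM, and macrophages and monocytes 278 (273 to 284) and 362 (354 to 369) CPM. The intervals of endothelial and dendritic cells overlapped in both libraries, and so did those of dendritic cells and macrophages, so these neighbours were not separated beyond counting error. Fibroblasts had 197 and 189 CPM, with intervals that overlapped between the libraries. Tumour cells were far lower, at 14.2 CPM (13.5 to 14.9) in vehicle and 32.8 CPM (31.8 to 33.8) in WQ-2101. The WQ-2101 level in tumour cells was 2.31 times the vehicle level (2.18 to 2.45), and in macrophages and monocytes 1.30 times (1.26 to 1.34).

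The same held for the share of tumour cells with a Cxcl9 UMI after every cell was thinned to 2000 UMIs. That share was 1.94% (1.62 to 2.30%) of vehicle cells and 4.39% (3.97 to 4.84%) of WQ-2101 cells, and unthinned it was 10.1% and 15.3%. Thinning drew each cell down at random and left out 17 and 117 shallower tumour cells. Tumour cells with a Cxcl9 UMI were thus a small group in both libraries, and a larger one with WQ-2101. In T cells Cxcl9 was found at 6 UMIs, or 2.75 CPM (1.01 to 5.98), in vehicle and at 83 UMIs, or 41.9 CPM (33.4 to 52.0), in WQ-2101. Of those 83 UMIs, 71.1% lay in 5 cells, and T cells with a Cxcl9 UMI had 2312 CPM of macrophage and monocyte markers, summed over the full marker list, in WQ-2101 against 939 CPM in T cells without one. Free RNA, released by other cells and caught in a droplet, was estimated from markers of other classes and would give T cells 7.90 and 10.9 CPM of Cxcl9, more than the vehicle library showed. The part of macrophage RNA in the T cell value was not tested. Without the 5 highest cells of each library the T cell values were 0.466 and 12.4 CPM.

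Within macrophages and monocytes the Cxcl9 difference did not run the same way in every subset, and the subsets had different shares. Monocytes were 18.6% of the class in vehicle and 7.06% in WQ-2101, C1q-high macrophages 45.8% and 52.9%, and the mixed cluster 6 gave the class 43 and 505 cells. With the subsets set to the same share in both libraries, the class had 289 and 350 CPM of Cxcl9. C1q-high macrophages, which carry the complement genes of mature tumour macrophages, had 380 CPM in vehicle and 481 CPM in WQ-2101. Macrophages with high MHC class II genes and low C1q had 324 and 237 CPM, and monocytes 216 and 187 CPM, so both were lower with WQ-2101. The remaining macrophages had 55.6 and 120 CPM. The subset with the lowest vehicle level had the highest ratio, 2.16 (1.88 to 2.47). Among dendritic cells, type 1 cells, which present antigen to CD8 T cells, were highest at 508 and 761 CPM in 19 and 13 cells.

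Cxcl10, the more broadly induced CXCR3 ligand, was highest in NK cells, at 988 CPM (897 to 1086) in vehicle and 969 CPM (881 to 1062) in WQ-2101. In vehicle it was next in mural and T cells, at 787 and 785 CPM, whose intervals overlapped. The mural value came from 74 UMIs in 18 cells, and 6.67% of thinned mural cells had a UMI, against 33.9% of T cells. B and plasma cells, with 360 CPM from 23 UMIs in 1 cell, endothelial cells with 334 CPM, macrophages and monocytes with 301 CPM and dendritic cells with 291 CPM followed, and each overlapped its neighbour. In WQ-2101 dendritic cells had 613 CPM (547 to 685) and mural cells 573 CPM (413 to 775), then came macrophages at 414 CPM (405 to 422) and T cells at 376 CPM (349 to 404). T cells thus changed places with dendritic cells between the libraries. Tumour cells were at 160 CPM (158 to 162) and 174 CPM (172 to 177), a ratio of 1.09 (1.07 to 1.11), although Cxcl9 in the same cells differed by more. Neutrophils, with 68.4 and 58.7 CPM, were the lowest class in both libraries, and 4.69% and 8.05% of them had a Cxcl10 UMI at median depths of 986 and 963 UMIs.

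In T cells Cxcl10 was 785 CPM (748 to 823) in vehicle and 376 CPM (349 to 404) in WQ-2101, a ratio of 0.479 (0.439 to 0.523) and a log2 ratio of -1.05. After thinning, 33.9% (29.6 to 38.5%) of 457 vehicle T cells and 23.4% (19.5 to 27.7%) of 431 WQ-2101 T cells had a UMI, and 135 and 236 shallower T cells were left out. Unthinned, the shares were 43.8% and 29.5%, at median depths of 2880 and 2434 UMIs, beside the much lower shares of the shallower neutrophils. Among the 5 larger T cell gates the difference was widest in CD4 T cells that were neither regulatory nor naive-like, with 1835 CPM in vehicle and 545 CPM in WQ-2101, and in T cells without a Cd4 or Cd8 UMI, with 1659 and 528 CPM. Regulatory T cells, marked by Foxp3, had 684 and 707 CPM, with overlapping intervals. Naive-like CD8 T cells ran the other way, with 179 and 332 CPM.

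T cells with a thinned Cxcl10 UMI had 1570 CPM of 6 type I interferon targets (Ifit1, Ifit3, Isg15, Rsad2, Oasl2 and Usp18, summed) in vehicle and 999 CPM in WQ-2101. T cells without one had 183 and 263 CPM. In all T cells that sum was 658 and 544 CPM, lower with WQ-2101 as Cxcl10 was. In dendritic cells, where Cxcl10 was 291 CPM (258 to 327) and 613 CPM (547 to 685), it was 381 and 830 CPM, higher with WQ-2101 as Cxcl10 was. The part of these target genes' state in the Cxcl10 values was not tested. Type 2 dendritic cells held the widest difference, with 248 and 1131 CPM of Cxcl10 in 24 and 17 cells. After thinning, 33.3% and 35.3% of them had a Cxcl10 UMI, beside 23.2% and 26.9% of all dendritic cells. The thinned shares were thus close between libraries while the levels were not. When Leiden clusters replaced the marker gates, dendritic Cxcl10 was 304 and 394 CPM and no longer past 1.5-fold.

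Among tumour clusters with at least 100 cells, the highest Cxcl9 and the highest Cxcl10 lay in different clusters. The clusters were made without the 6 genes but with genes that vary with them, so their levels are a description. Cluster 0, led by the interferon gamma targets Iigp1 and Gbp2, held 16.8% of vehicle and 16.0% of WQ-2101 tumour cells, with Cxcl9 at 58.7 and 113 CPM and Cxcl10 at 435 and 511 CPM. Cluster 16, led by the type I interferon targets Ifit3 and Ifit1, held 1.83% and 1.53%, with Cxcl9 at 25.2 and 19.8 CPM and Cxcl10 at 1319 and 1260 CPM. Of clusters 0 and 16, the one with the higher Cxcl10 level thus had the lower Cxcl9. Cluster 0 still held more Cxcl10 UMIs, 8286 in vehicle and 11291 in WQ-2101, against 2249 and 1975 in cluster 16. The other shares differed between libraries: cluster 2 held 38.3% of vehicle and 11.3% of WQ-2101 tumour cells, and cluster 4 13.0% and 19.9%, and cluster 3 also held a larger share in WQ-2101, so the tumour class mixed clusters in different shares. In clusters 1 to 4, which held most tumour cells, Cxcl9 was between 4.39 and 20.2 CPM and Cxcl10 between 36.4 and 119 CPM.

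Cxcl9 was higher with WQ-2101 inside each of clusters 0 to 4, with ratios from 1.28 in cluster 3, whose interval of 0.850 to 1.97 held 1, to 2.67 (2.13 to 3.37) in cluster 4. In cluster 16 the ratio was 0.784 (0.478 to 1.27). With the pseudocount the log2 ratios in clusters 2 and 3 were 0.33 and 0.19, under the 1.5-fold line. Cxcl9 in clusters 1 to 3 was 4.39 to 5.28 CPM in vehicle and 6.74 to 9.39 CPM in WQ-2101. The free RNA estimate over all tumour cells was 3.88 and 6.01 CPM, and its part in these ratios was not tested. The summed CPM of 7 interferon gamma targets (Iigp1, Gbp2, Gbp4, Gbp7, Igtp, Irgm1 and Irgm2) was also higher with WQ-2101 in clusters 0 to 4, at 680 and 1029 in cluster 0 and 114 and 223 in cluster 4. In cluster 16 it was 847 and 968, although Cxcl9 was not higher there. The part of this target group's state in the Cxcl9 values was not tested. Cxcl10 inside clusters 0 to 4 had ratios between 0.819 and 1.17. Cluster 6, with tumour and macrophage RNA together, held 24 vehicle and 595 WQ-2101 cells of the tumour gate, and without it tumour Cxcl9 was 14.2 and 31.5 CPM.

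**Figure D2:**
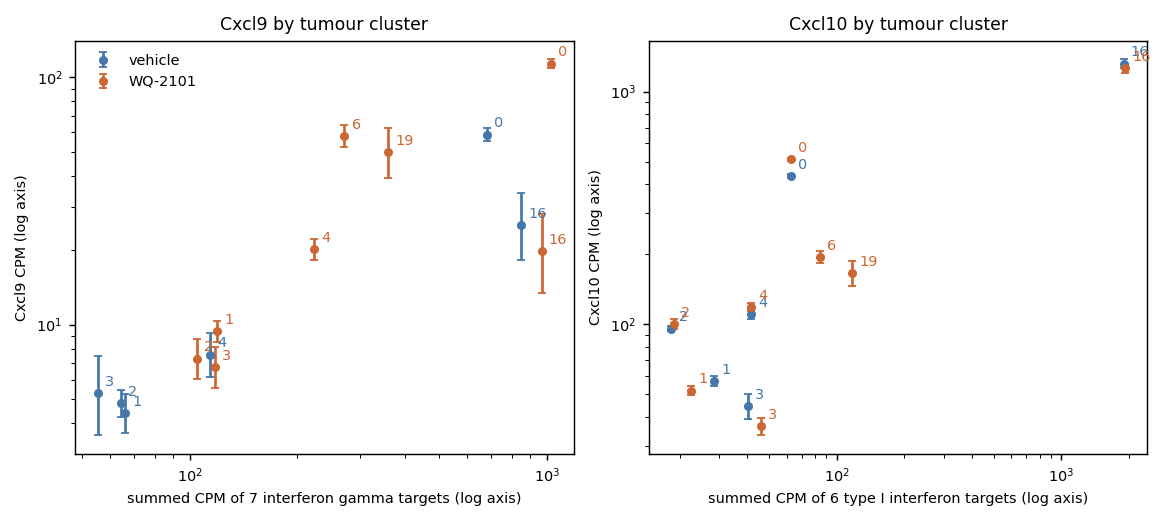
Cxcl9 against the summed level of 7 interferon gamma targets (left) and Cxcl10 against that of 6 type I interferon targets (right), per tumour cluster and library with at least 100 cells. Both axes are CPM on log scales, numbers are cluster labels and bars are exact 95% Poisson intervals. Cluster 0 holds the highest Cxcl9 and cluster 16 the highest Cxcl10 in each library.

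Tumour cells and macrophages with Cxcl9 had Cxcl10 in a larger share than those without. Of vehicle tumour cells with a thinned Cxcl9 UMI, 45.0% had a Cxcl10 UMI, against 13.0% of the rest, and in WQ-2101 these were 46.5% and 15.5%. In macrophages and monocytes the shares were 33.8% against 16.3% in vehicle and 41.5% against 20.6% in WQ-2101. Tumour cells with a thinned Cxcl9 UMI had 1599 CPM of the 7 interferon gamma targets in vehicle and 1380 CPM in WQ-2101, against 155 and 268 CPM in those without. The sum in positive cells was thus not higher with WQ-2101, while there were 129 such cells in vehicle and 385 in WQ-2101.

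Macrophage RNA in tumour cells was checked, since macrophages hold much Cxcl9, Cxcl16 and Ccl5. Summed markers of the macrophage gate, all 11 of which were detected, were 135 CPM in vehicle and 178 CPM in WQ-2101 tumour cells, beside 11110 and 11894 CPM in macrophages, and the gate itself capped them. Over the full marker list, tumour cells with a Cxcl9 UMI had 288 CPM in vehicle and 396 CPM in WQ-2101, against 260 and 309 CPM in those without. For Cxcl16 these were 274 and 369 against 259 and 298 CPM, and for Ccl5 265 and 378 against 263 and 311 CPM. Marker RNA was thus higher in cells with these genes, by more in WQ-2101 than in vehicle, and its part in the tumour values was not tested beyond what follows. Free RNA was estimated from the macrophage markers that the gate capped. It would give tumour cells 5.70 and 8.82 CPM of Cxcl16, measured at 18.0 and 30.7 CPM. For Ccl5 it would give 5.87 and 9.57 CPM, where 12.9 and 26.7 CPM were measured. For Cxcl9 it would give 3.88 and 6.01 CPM, below the measured 14.2 and 32.8 CPM. With that estimate subtracted the tumour levels of Cxcl9 were 10.3 and 26.8 CPM. In tumour cells with no C1q UMI, an exclusion added after the data were seen, they were 15.5 and 27.5 CPM, a log2 ratio of 0.67.

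Cxcl16, the CXCR6 ligand (ENSMUSG00000018920, chromosome 11, 70453983 to 70459984, minus strand, protein coding, 5 exons), was highest in dendritic cells and in macrophages and monocytes. Dendritic cells had 552 CPM (506 to 601) in vehicle and 519 CPM (458 to 585) in WQ-2101, and macrophages and monocytes 422 CPM (415 to 429) and 546 CPM (536 to 555). The classes were apart in vehicle and overlapped in WQ-2101. Their thinned shares of positive cells were 53.6% and 46.2% for dendritic cells and 50.05% and 59.1% for macrophages. Fibroblasts followed at 51.5 and 87.0 CPM. Neutrophils had 24.4 and 73.3 CPM from 5 and 10 UMIs, and the other classes were at or below 44.5 CPM.

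Within macrophages Cxcl16 was 533 and 631 CPM in C1q-high cells, 491 and 515 CPM in MHC class II-high, C1q-low cells, and 273 and 371 CPM in monocytes. None of these ratios reached 1.5-fold. Migratory dendritic cells, marked by Ccr7 and Fscn1, had the highest Cxcl16 of all gates with 849 and 885 CPM, and their intervals overlapped. In tumour cells Cxcl16 was 18.0 CPM (17.2 to 18.7) and 30.7 CPM (29.7 to 31.7), with 3.47% and 6.18% of thinned cells positive. This ratio of 1.71 (1.62 to 1.80) lay near the threshold. It fell under that line with Leiden clusters, a pseudocount of 10 CPM, without the mixed cluster 6, or in cells with no C1q UMI. The log2 ratio was then 0.50 to 0.56. Inside clusters 0 to 3 the Cxcl16 log2 ratio was 0.29 to 0.54, also under the line, and in cluster 4 it was 0.78. In T cells Cxcl16 was 20.6 CPM from 45 UMIs and 44.5 CPM from 88 UMIs, and T cells with a Cxcl16 UMI had 4295 and 3384 CPM of macrophage markers against 661 and 700 CPM in the others. The part of those markers in the T cell value was not tested. With a stricter gate it was 12.9 and 20.6 CPM, and with Leiden clusters 13.3 and 16.5 CPM, a log2 ratio of 0.23 against 0.95, and neither was past 1.5-fold.

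Ccl5 (ENSMUSG00000035042, chromosome 11, 83525778 to 83530518, minus strand, protein coding, 3 exons) was highest in T cells, with 4615 CPM (4525 to 4706) in vehicle and 3759 CPM (3674 to 3845) in WQ-2101. NK cells had 1414 CPM (1304 to 1530) and 2277 CPM (2143 to 2418), and dendritic cells 1144 CPM (1078 to 1214) and 1256 CPM (1160 to 1358). Each of these neighbours was separated by more than counting error. Neutrophils had 68.4 CPM from 14 UMIs in vehicle and 367 CPM in WQ-2101, where all 50 UMIs lay in 2 cells. Macrophages and monocytes had 91.9 CPM (88.7 to 95.2) and 172 CPM (166 to 177), and tumour cells 12.9 and 26.7 CPM. Mural cells had 0 UMIs in both libraries, for which a limit of 3 counts, not the Poisson interval used elsewhere, is 31.9 and 41.0 CPM.

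The T cell level differed less than 1.5-fold between libraries, at a ratio of 0.815 (0.790 to 0.839), but the gates did not share 1 direction. CD8 T cells that were not naive-like had 5326 and 4541 CPM, and naive-like CD8 T cells 6935 and 2247 CPM in 34 and 67 cells. Regulatory T cells were the lowest of the larger gates and ran the other way, with 866 and 1533 CPM. The naive-like gate asked for at least 2 markers of naive T cells, and since Ccl5 is a gene of memory and effector T cells, its level there goes against that name. Migratory dendritic cells held 921 of 1107 vehicle and 520 of 637 WQ-2101 dendritic UMIs of Ccl5, at 5355 CPM in 26 cells and 4557 CPM in 29 cells, beside 210 and 219 CPM in type 1 cells. Their thinned shares of positive cells were 84.6% and 85.7%.

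In macrophages and monocytes the WQ-2101 level of Ccl5 was 1.87 times that of vehicle (1.78 to 1.96). The share of thinned cells with a UMI was 6.68% in vehicle and 12.1% in WQ-2101, with intervals that did not overlap. C1q-high macrophages had 95.2 and 189 CPM, and MHC class II-high, C1q-low macrophages 79.7 and 173 CPM. Monocytes had 104 and 74.3 CPM, so they did not share the direction. Macrophages with a Ccl5 UMI had 134 CPM of summed T cell markers in vehicle and 133 CPM in WQ-2101, against 19.7 and 30.3 CPM in those without. In macrophages with 0 UMIs of T and NK cell markers Ccl5 was 60.4 and 144 CPM, a log2 ratio of 1.19 against 0.87 with all cells.

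In tumour cells Ccl5 was 12.9 CPM (12.2 to 13.5) and 26.7 CPM (25.8 to 27.6). Thinned shares were 2.18% and 3.81%, beside the unthinned 11.7% and 17.1%. Inside clusters 0 to 3 the ratios were between 1.26 and 1.69. With the pseudocount the log2 ratios there were 0.22 to 0.54, under the 1.5-fold line. Thinned shares were 2.768% and 2.468% in cluster 0, 2.199% and 1.866% in cluster 1, and 1.956% and 2.002% in cluster 2. In cluster 3 they were 1.096% and 2.65%, and the intervals overlapped in each of clusters 0 to 3. Levels there were 8.61 to 10.4 CPM in vehicle and 10.9 to 17.3 CPM in WQ-2101. The free RNA estimate over all tumour cells was 5.87 and 9.57 CPM, and its part in these ratios was not tested. In cluster 4 the ratio was 2.39 (1.97 to 2.90), with 10.8 and 25.8 CPM and a log2 ratio of 0.96. Its thinned shares were 1.73% and 4.15%, with intervals that did not overlap. Cluster 19, led by granzyme genes such as Gzmc and by mast cell protease genes, had 162 and 271 CPM of Ccl5 in 21 and 112 cells of the tumour gate. Tumour cells with a Ccl5 UMI had 21.0 and 38.2 CPM of T cell markers, against 7.76 and 13.7 CPM in those without, and what this adds to the tumour value was not tested. With Leiden clusters in place of gates, which left out clusters 6 and 19, tumour Ccl5 was 11.3 and 17.9 CPM and no longer past 1.5-fold.

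Cxcr3 (ENSMUSG00000050232, chromosome X, 101731535 to 101734269, minus strand, protein coding, 2 exons), the receptor of CXCL9 and CXCL10, was read at 186 UMIs in all kept vehicle cells and 158 in all kept WQ-2101 cells. T cells held 72.6% and 55.1% of them. Its T cell level was 61.9 CPM (51.9 to 73.2) in vehicle and 44.0 CPM (35.2 to 54.2) in WQ-2101, a ratio of 0.711 (0.536 to 0.937) that did not reach 1.5-fold. After thinning 10.3% (7.65 to 13.4%) and 9.28% (6.71 to 12.4%) of T cells had a UMI, intervals that overlapped, and unthinned the shares were 18.1% and 10.5%. In tumour cells, which should lack the receptor, the thinned shares were 0.0150% and 0.0684%, at median depths of 16489 and 13213 UMIs against 2880 and 2434 in T cells. NK cells had 1 and 3 UMIs of Cxcr3.

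Among the 5 larger T cell gates Cxcr3 was highest in the CD4 gate that was neither regulatory nor naive-like, at 127 and 125 CPM from 20 and 14 UMIs. CD8 T cells that were not naive-like had 48.2 and 32.4 CPM, and their intervals overlapped. Regulatory T cells had 85.5 CPM from 24 UMIs in vehicle and 34.1 CPM from 4 UMIs in WQ-2101, and the ratio interval of 0.100 to 1.16 held 1. When each cell counted alike, or when T cells with a C1q UMI were left out, T cell Cxcr3 was 74.9 and 44.2 CPM or 74.9 and 44.6 CPM, past 1.5-fold lower.

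Cxcr6 (ENSMUSG00000048521, chromosome 9, 123806475 to 123811760, plus strand, protein coding, 2 exons), the receptor of CXCL16, was held by T cells for 71.3% of 359 vehicle UMIs and 61.2% of 577 WQ-2101 UMIs. Its T cell level was 117 CPM (103 to 133) in vehicle and 178 CPM (160 to 198) in WQ-2101, a ratio of 1.52 (1.29 to 1.79). With the pseudocount the log2 ratio was 0.58, just under the 1.5-fold line, and it passed the line in 7 of 13 alternatives. Thinned shares were 20.8% (17.2 to 24.8%) and 28.8% (24.5 to 33.3%), with intervals that met only at their ends, beside 0.0752% and 0.137% in tumour cells. The receptors thus leaned in opposite directions in T cells, Cxcr3 lower and Cxcr6 higher with WQ-2101.

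The Cxcr6 ratio was above 1 beyond counting error in CD8 and CD4 T cells that were neither naive-like nor regulatory, and, on few UMIs, in regulatory T cells. CD8 cells of that kind had 144 and 242 CPM, and 27.2% and 39.7% of them were positive after thinning. CD4 cells had 146 CPM from 23 UMIs and 357 CPM from 40 UMIs. Regulatory T cells had 24.9 CPM from 7 UMIs and 76.6 CPM from 9 UMIs, with a ratio interval of 1.02 to 9.71. Naive-like CD8 T cells had 46.3 and 41.0 CPM, and T cells without a Cd4 or Cd8 UMI had 96.5 and 112 CPM, so neither differed beyond counting error. Of thinned T cells with a Cxcr3 UMI, 25.5% in vehicle and 25.0% in WQ-2101 also had one of Cxcr6, beside 20.2% and 29.2% of T cells without Cxcr3. NK cells had 2.31 CPM from 1 UMI and 17.1 CPM from 8 UMIs of Cxcr6.

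**Figure D3:**
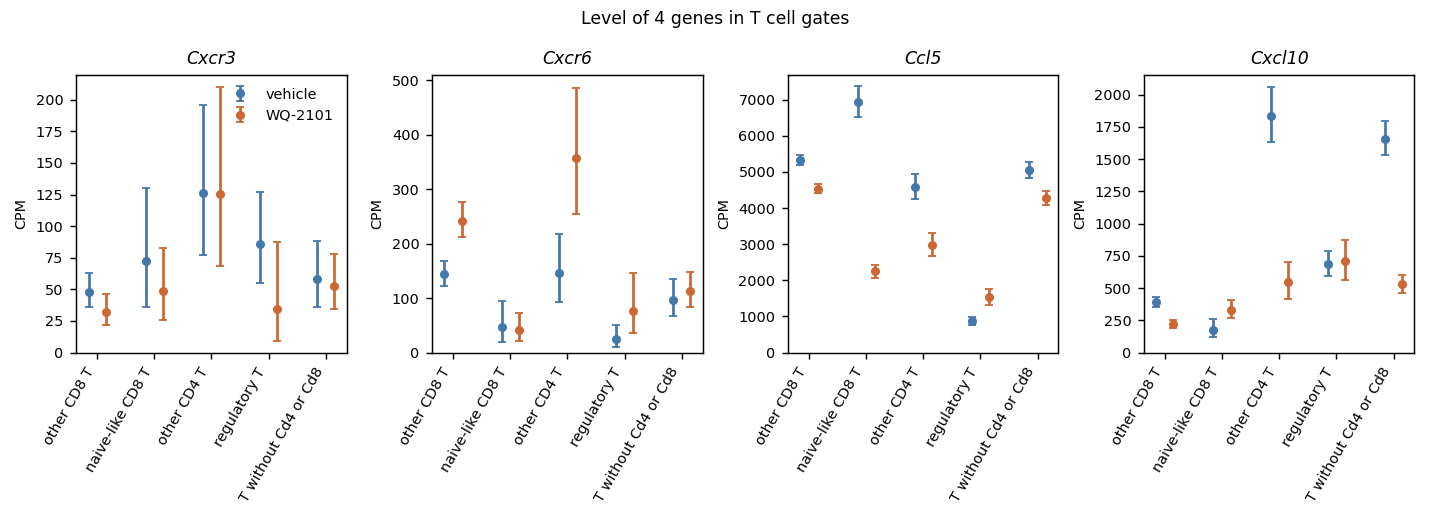
CPM of Cxcr3, Cxcr6, Ccl5 and Cxcl10 in 5 T cell gates of the vehicle and WQ-2101 libraries, on linear axes that start at 0. Points are libraries and bars are exact 95% Poisson intervals. The vehicle point for Cxcl10 lies at 1835 CPM in CD4 and at 1659 CPM in coreceptor-negative T cells, and the WQ-2101 points there lie at 545 and 528 CPM.

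The classes that held the transcripts of a gene differed between libraries along with their sizes. Macrophages and monocytes held 72.3% of Cxcl9 UMIs in vehicle and 55.4% in WQ-2101, and tumour cells 13.3% and 27.4%. For Cxcl16 these were 76.2% and 63.2% in macrophages and 11.6% and 19.4% in tumour cells. Tumour cells held most Cxcl10 in both, with 54.7% and 56.8%, although their level per UMI was below that of most classes. They were 48.8% and 51.1% of cells. Their 160 and 174 CPM were below the level over all kept cells, so they held less Cxcl10 than their share of UMIs. T cells held 54.6% and 35.5% of Ccl5, while macrophages held 16.7% and 19.0%. Over all kept cells the levels were 74.7 and 86.6 CPM for Cxcl9, 204 and 221 CPM for Cxcl10, 108 and 114 CPM for Cxcl16, 107 and 119 CPM for Ccl5, 1.08 and 0.901 CPM for Cxcr3, and 2.08 and 3.29 CPM for Cxcr6. The whole-library differences were thus smaller than those in tumour cells for Cxcl9, Cxcl16 and Ccl5.

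**Figure D4:**
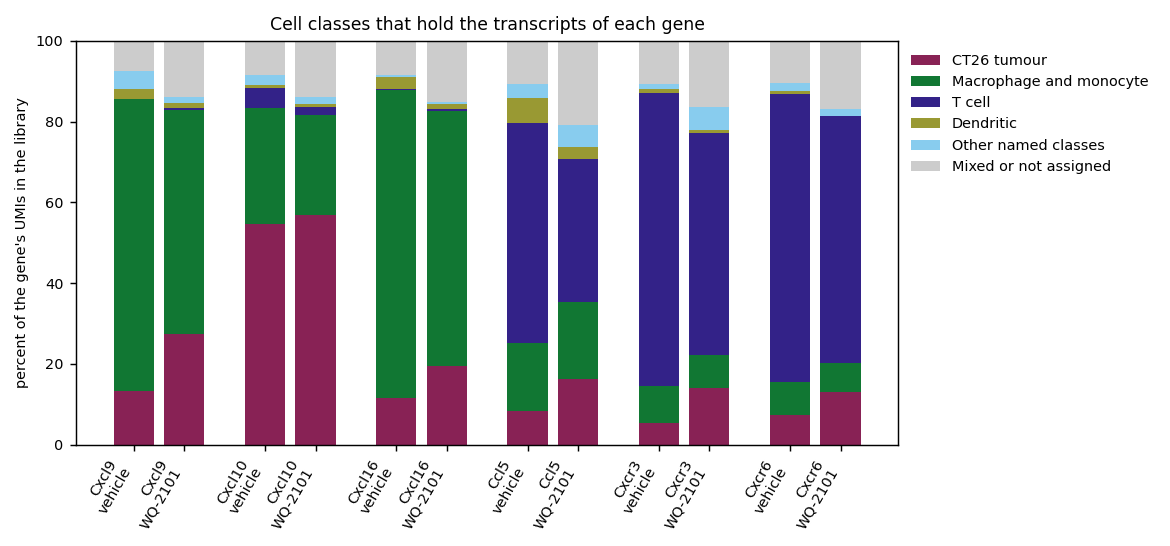
Percent of each gene's UMIs in a library that lay in each cell class, as stacked bars from 0 to 100%. Macrophages hold 72.3% of vehicle and 55.4% of WQ-2101 Cxcl9, and the cells that were mixed or without a class hold more in WQ-2101 for each gene.

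Genes around the 6 were described from lists that were chosen with earlier results of these data known. Of 19 interferon gamma targets, 16 were tested in tumour cells and 10 were higher with WQ-2101 and 0 lower, with a median log2 ratio of 0.69. Over all genes tested in tumour cells 0.879% were higher and 0.409% lower. The invariant chain gene Cd74 was 58.3 CPM in vehicle and 156 CPM in WQ-2101, and the MHC class II genes H2-Aa and H2-Ab1 were 37.3 and 89.8 CPM and 39.5 and 95.2 CPM. These genes are also abundant in macrophages, whose marker sum in tumour cells was given above. The GTPase genes Gbp2, Iigp1 and Igtp, which act against intracellular microbes, were 55.9 and 97.4, 56.3 and 102, and 19.1 and 35.3 CPM. Of 6 tested lymphocyte chemokine genes outside the 6, 1 was higher and 0 lower.

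In macrophages and monocytes 4 of 18 tested interferon gamma targets were higher and 0 lower, with a median log2 ratio of 0.41. Over all genes tested in that class 1.93% were higher and 0.731% lower. Gbp5 was 15.9 and 38.0 CPM, Upp1 23.6 and 54.0 CPM, Cd274, which encodes PD-L1, 132 and 202 CPM, and H2-Aa 1392 and 2121 CPM. Mmp9, a protease that can cut chemokines, was 276 CPM in vehicle and 18.0 CPM in WQ-2101. Mmp9 was among the leading genes of cluster 14, with Ctsk and Acp5, genes of osteoclast-like cells, and the macrophage gate held 118 vehicle and 9 WQ-2101 cells of that cluster. Of 6 tested receptor genes 1 was higher, the scavenging receptor gene Ackr3, at 14.4 and 26.6 CPM, and of 5 chemokine genes 0 passed 1.5-fold.

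In T cells 3 of 17 tested interferon gamma targets were higher and 2 lower, with a median of -0.09. Over all genes tested in T cells 2.56% were higher and 3.10% lower. Ifng itself, the gene of interferon gamma, was 160 CPM in vehicle and 367 CPM in WQ-2101, a ratio with a counting interval of 2.01 to 2.61. The chemokine genes Xcl1 and Ccl1 were 157 and 87.9 CPM and 119 and 207 CPM, and the receptor gene Ccr2 was 121 and 76.3 CPM. Iigp1 was 51.3 and 26.3 CPM, whereas H2-Aa and H2-Ab1 were 112 and 219 CPM and 175 and 304 CPM. The list thus held genes in both directions in the T cell gate. H2-Aa and H2-Ab1 are also abundant in macrophages, whose gate markers summed to 302 and 331 CPM in T cells. The part of macrophage RNA in these values was not tested. Of 7 tested lymphocyte chemokine genes outside the 6, 2 were higher and 1 lower, and of 8 receptor genes 0 were higher and 2 lower. Of 9 tested genes that carry or stop the receptors' G protein signal, such as Gnai2 and Arrb2, 0 passed 1.5-fold in T cells.

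In dendritic cells 3 of 18 tested interferon gamma targets were higher and 3 lower, where all genes passed often, as given above. Of 7 chemokine genes 2 were higher and 1 lower, and of 11 receptor genes 3 were higher and 1 lower. The chemokine gene Ccl4 was 589 and 1361 CPM and Ccl17, which draws CCR4-bearing T cells, was 2148 and 1092 CPM. Ciita, the switch of MHC class II genes, was 82.7 and 144 CPM. The smaller values of Cxcr5, Ccr2, Irf7, Gbp5, Iigp1, Dpp4 and Grk6, each between 14.5 and 98.6 CPM, also passed 1.5-fold. Their counting intervals in each case reached 1 or lay close to it. Summed B and plasma cell markers in the dendritic gate were 14.5 CPM in vehicle and 284 CPM in WQ-2101. The part of B cell RNA in these dendritic values was not tested.

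Across 15 points of cell class and library with 50 or more cells, the pattern of log2(CPM plus 5) linked Cxcl9 with Cxcl16 (Pearson's r = 0.90) and Cxcr3 with Cxcr6 (r = 0.93), while Cxcl9 and Cxcl10 had r = -0.07. Points from 1 library share its depth and preparation, so these are descriptions. Ccl5 and Cxcl10 had r = 0.69. Outside the 6 genes, those most like Cxcl9 were Pltp, Slc8a1, Sdc3, Plxnd1 and Alpk1, with r from 0.90 to 0.88. Those most like Cxcl16 were Flrt3, Slamf9, Dapk1, Mgl2 and Zmynd15, with r from 0.94 to 0.93. For Ccl5 they were Ifngr1, Il12rb2, Tnfrsf18, Tnfrsf9 and Scyl2, with r from 0.96 to 0.94. For Cxcl10 they were B230307C23Rik, Dnajc15, Atp5d, Srgap3 and Sema6d, with r from 0.90 to 0.87. Gzmk, a granzyme gene of T cells, was the most like both receptors, at r = 0.96 for Cxcr3 and 0.97 for Cxcr6. Oprm1, Dgka, Faah and Cd3d followed for Cxcr3, and Gm44174, Trac, Gm156 and Cd3g for Cxcr6.

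**Figure D5:**
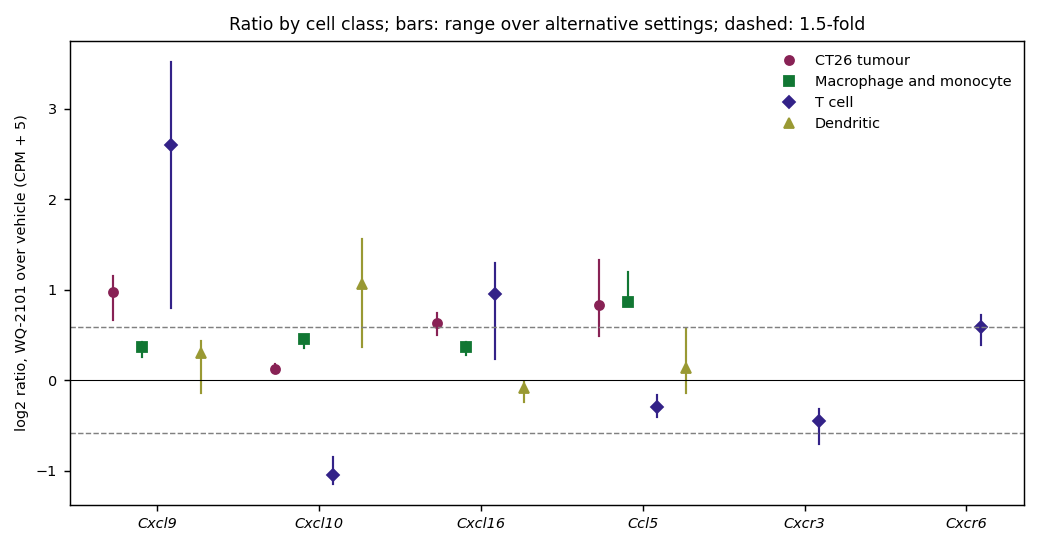
Log2 ratio of WQ-2101 over vehicle in CPM plus 5 for each gene that passed 5 CPM in a class. Points are the reported values, vertical lines span the alternative settings and dashed lines mark 1.5-fold. Cxcl10 lies at -1.05 in T cells and at 1.07 in dendritic cells, and the T cell line for Cxcl9 runs from 0.80 to 3.52.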

How the data were processed

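The authors deposited raw UMI counts per gene and barcode. Per the file headers, Cell Ranger 7.2.0 wrote the count matrices; version 2.2.2 and the build GRCm38 stand in the submitters' processing notes. No source used here gives the annotation release or says whether doublets or free RNA were removed. Barcodes with at least 500 UMIs and 300 genes and at most 15% mitochondrial UMIs were kept, and Scrublet in scanpy 1.11.5 called 546 vehicle and 668 WQ-2101 doublets (3.84% and 3.70%), which were left out. Depth was 184754398 UMIs over 14374 vehicle barcodes and 185587327 over 18142 WQ-2101 barcodes.

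Each cell went to the class whose markers, as a share of the cell's UMIs over a reference level, scored highest, with at least 2 UMIs and, outside the tumour class, 2 distinct markers. The best score had to reach 0.25 and the next had to stay at or below 0.5 of it. These thresholds, and the markers dropped from the lists, were set after the data were seen, and no marker was one of the 6 genes. The members and lists were chosen with earlier results of these data known. Named genes were the 6, up to 6 genes per list and class past 1.5-fold with a mean of 20 CPM, and the 5 genes most like each member. The 2 short lists of interferon targets summed per cell group were chosen after the clusters were seen.

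Counts were summed per class and library. CPM carry exact Poisson 95% intervals, ratios exact conditional intervals and shares exact Clopper-Pearson intervals, all for counting error only. Shares were also taken after thinning cells to 2000 UMIs. Leiden clusters (2000 variable genes, 30 components, 15 neighbours, resolution 1) were made without the 6 genes. Only the ratio calls and the ratio intervals were tested on simulated counts, with changes larger than 1.5-fold. Python 3.11.15, numpy 2.4.6, scipy 1.17.1 and pandas 2.3.3 were used. Of the 6 genes, 4 had a RefSeq promoter entry; Cxcl16 and Ccl5 did not match. Some list results are not reported here.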

Additional observations from a re-analysis of the deposited data

Results flagged for a closer look

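Cxcl10 differed in opposite directions in dendritic cells and T cells. In dendritic cells it was 291 CPM in vehicle and 613 CPM in WQ-2101, a log2 ratio of 1.07, and in T cells 785 and 376 CPM, a log2 ratio of -1.05. The difference of the log2 ratios was 2.12. With 1 library per group this difference was not tested. In dendritic cells 22.4% of all genes tested passed 1.5-fold in either direction, and in T cells 5.66%. Thinned shares of cells with a Cxcl10 UMI were 23.2% and 26.9% in dendritic cells and 33.9% and 23.4% in T cells. The dendritic ratio rests on 281 and 311 UMIs, of which 39.1% and 42.8% lay in the 5 highest cells of each library, and without those cells the levels were 187 and 379 CPM.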

How the results depend on the processing

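No paired analysis was possible because each group had 1 library. With Leiden clusters in place of gates, 1 of the 6 genes (Cxcl9) was higher in tumour cells, against 3, and 0 in dendritic cells, against 1. In T cells Cxcl16 was then no longer past 1.5-fold and Cxcr6 was, at a log2 ratio of 0.66. At a fold of 2 the counts of higher genes were 0 in tumour cells, 0 in macrophages and monocytes, and 1 (Cxcl9) in T cells. In T cells 2 genes, Cxcl10 and Cxcr3, were lower when cells counted alike, and again when cells with other-class markers were left out. That exclusion and the one of cluster 6 were chosen after seeing the data. With a minimum of 20 CPM, list genes lower numbered 0 in tumour cells, against 1, and 3 in T cells, against 5. In dendritic cells 7 were then higher, against 11. Shares over all genes at these alternative settings are not given here, so the counts are descriptions. No value past 1.5-fold changed sign in any alternative run, while dendritic Cxcl9 (-0.14 to 0.43) and Ccl5 (-0.14 to 0.56), which were not past it, did. T cell Cxcl9 ranged from a log2 ratio of 0.80 with Leiden clusters to 3.52 with a pseudocount of 1 CPM, tumour Ccl5 from 0.49 to 1.33 and dendritic Cxcl10 from 0.37 to 1.56. Scaling by the median ratio moved no class by more than 0.03 on the log2 scale. Differences between animals could not be measured.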

Other observations

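Cells outside the classes also held the 6 genes. The cells with tumour or stromal markers and macrophage markers, 66 in vehicle and 977 in WQ-2101, had 122 and 78.0 CPM of Cxcl9, 534 and 248 CPM of Cxcl10, 86.0 and 101 CPM of Cxcl16, and 74.9 and 97.6 CPM of Ccl5. Cells without a class had 160 CPM of Ccl5 in vehicle and 255 CPM in WQ-2101. In gamma-delta T cells, 24 in vehicle and 8 in WQ-2101, Cxcr6 was 257 CPM from 17 UMIs and 119 CPM from 2 UMIs.

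A cluster with macrophage and T cell RNA together held 67 vehicle and 61 WQ-2101 cells of the macrophage gate, with Ccl5 at 1513 and 1148 CPM. The macrophage cluster led by Mmp12, Ccl6 and Mmp13 had Cxcl9 at 41.3 and 52.7 CPM, beside 297 and 453 CPM in the cluster led by Ccl12, Pf4 and Apoe, and Ccl5 at 130 and 290 CPM, beside 63.7 and 127 CPM.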
